A study of Mus musculus with 23 samples.

Results

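The genes described here encode the protein parts of the cytosolic ribosome. They were taken from the gene table by symbol, as every Rpl or Rps symbol with a number and at most one closing letter a, x or l, with Rplp0, Rplp1, Rplp2 and Rpsa, leaving out symbols that mark pseudogenes. Of the 24475 genes in the table, 81 matched, and 77 of these reached an RPKM (a read count divided by gene length and by library size) of 0.5 in at least 5 libraries. The 77 genes comprise 45 of the large subunit and 32 of the small subunit. The symbols chose them, not a measured change, although the filter on low values used the RPKM.

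The study sequenced liver RNA of male C57BL/6J mice kept for 4 months on standard chow or on a high-fat diet (HFD). For 3 weeks the mice received an antibody at 10 mg/kg, either REGN1193, which blocks the glucagon receptor (GCGR), or REGN496. The labels do not say which code is the isotype control antibody of the design, so by elimination REGN496 is treated as the control here. There were 5 libraries of chow-fed mice given the control antibody (libraries 1 to 5, "chow control"), 6 of chow-fed mice given the GCGR antibody (6 to 11, "chow GCGR"), 6 of HFD-fed mice given the control antibody (12 to 17, "HFD control") and 6 of HFD-fed mice given the GCGR antibody (18 to 23, "HFD GCGR"). Every group carried an antibody, so no untreated liver was among them. Whether every library is a mouse of its own is not stated, and p-values therefore measure the spread between these samples, which may be technical.

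Each cytosolic ribosome joins a large and a small subunit, and cells make their proteins in matched amounts together with ribosomal RNA. Most mammalian mRNAs for these proteins begin with a run of pyrimidines, the terminal oligopyrimidine (TOP) tract, through which the kinase mTORC1 and the protein LARP1 control their translation and stability. The liver devotes much of its protein synthesis to secreted plasma proteins, and glucagon directs hepatocytes towards making glucose and breaking down amino acids.

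As the tract is the feature these mRNAs are best known to share, 8 stretches with pyrimidine runs near annotated starts are shown, from long runs to short ones. A run shown here need not be the TOP tract of its mRNA, since it may lie before or after the annotated start. They were chosen after the values were seen. Each is 30 bases long, 5′ to 3′ on the gene's strand, from RefSeq promoters of GRCm38.p6, and capitals mark the longest run of C and T that begins with C. For a gene with several starts the one with the longest run is shown.
Rpl7a (chr2:26910789-26910818, + strand): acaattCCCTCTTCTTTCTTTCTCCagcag
Rpl15 (chr14:18270968-18270997, - strand): gagaaagCCTTCTTCCTTTCCTCTggcggc
Rpl4 (chr9:64173405-64173434, + strand): gagcgtggCCTTCTCCTCTCCCCgtcatgg
Rpl28 (chr7:4792953-4792982, + strand): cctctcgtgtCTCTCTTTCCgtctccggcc
Rps2 (chr17:24720083-24720112, + strand): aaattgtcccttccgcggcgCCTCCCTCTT
Rpl5 (chr5:107900497-107900526, + strand): gcctacagccaCTCTTTCTCacgtcgcttg
Rps3 (chr7:99483674-99483703, - strand): cgcggcgtcattgCTCCCgccctatatacc
Rps16 (chr7:28350665-28350694, + strand): gccgtaaagcccgCTTCTgtcgtgacgtag
The runs are 19 bases long in Rpl7a, 17 in Rpl15, 15 in Rpl4, 10 in Rpl28 and Rps2, 9 in Rpl5 and 5 in Rps3 and Rps16. Counted from the annotated start, the first base of the run is at -12 in Rpl7a, -4 in Rpl15 and -2 in Rpl28. It is at -20 in Rpl5, -11 in Rps16, 20 in Rps3, 27 in Rpl4 and 41 in Rps2. The Rps2 stretch lies at a start inside the annotated gene, which begins at position 24718121, and its run ends where the promoter sequence ends. All except Rpl28 were called in at least 1 of the diet comparisons.

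RefSeq promoters were found for 56 of the 77 genes, with 67 annotated starts. A run of at least 8 pyrimidines beginning with C, between 40 bases before and 50 bases after the start, stood at 77.6% of these starts. Among the 12036 starts of 9447 tested genes the share was 25.1%. With a minimum of 5 pyrimidines the shares were 98.5% and 72.7%, and the median longest run was 10 bases against 6. The motif CCGGAAG, known from binding sites of ETS family factors and searched on both strands of the 300-base promoter, stood at 35.8% of the ribosomal starts and 17.4% of all tested starts. AAGATGG, part of the site bound by YY1, stood at 16.4% and 7.27%, also on both strands. TATAAA was sought on the gene's strand from 40 to 16 bases before the start and was found at 0 of the 67 ribosomal starts and at 1.33% of all tested starts. A match describes letters near an annotated start and shows no binding. Rpl17, Rpl21, Rpl23a, Rpl29, Rpl3, Rpl30, Rpl32, Rpl36, Rpl7, Rpl8, Rplp1, Rps14, Rps20, Rps27a, Rps29 and Rps4l were among the 21 genes not matched.

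The 77 genes lie on 19 chromosomes. For the 72 with a length in the GENCODE M21 annotation, proteins had 51 to 419 residues with a median of 151.5, and transcripts had a median of 882 bases. Lengths were found for 8627 of the 11939 tested genes, which is under 80%, so no comparison of length with all genes was made.

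Across the series, summed RPKM per library ranged from 594026 to 692295, and the 10 most abundant genes took 20.1% to 28.6% of it. The table gives no read totals. Steps between low RPKM values gave depths of 0.89 to 1.11 relative to the median library. The liver label fitted the hepatocyte markers: 11 of 12 were in the table and all 11 passed the filter, with a summed RPKM of 58870 to 77370 per library. Alb, serum albumin, had 33085 ± 3797 RPKM (SD, n = 5) in chow control and 28129 ± 1579 (SD, n = 6) in HFD GCGR. The table is of whole liver, in which fewer cells of a type and less RNA per cell cannot be told apart.

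Ribosomal protein genes were among the abundant transcripts of these livers. Their mean RPKM over the 23 libraries had a median of 242.9 and quartiles of 200.6 and 294.6, against a median of 5.292 over all tested genes. At the top stood Rplp1, a protein of the stalk that recruits elongation factors, with a mean of 622.4 RPKM. Rps2, a small subunit protein near the mRNA entry channel, had 527.9 RPKM, and Rpl41, the smallest ribosomal protein, had 515.6 RPKM. These 3 genes overlapped in range across libraries, from 445.2 to 793.7 RPKM for Rplp1, from 436.3 to 616.9 for Rps2 and from 406.8 to 659.2 for Rpl41. In all, 71 of the 77 had a mean of at least 100 RPKM.

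The 6 genes under 100 RPKM were Rpl15 at 88.84, Rpl22 at 54.32, Rps4l at 13.9, Rps27 at 10.63, Rpl34 at 3.533 and Rpl30 at 2.11 RPKM. How reads were assigned may bear on at least some of these levels. The table holds values that no whole read can give, such as 7.007e-45 RPKM for Rpl30 in 1 HFD GCGR library. Reads therefore appear to have been assigned in fractions, possibly between similar copies, but the counting method is not given. Rps27, a small subunit protein with a zinc finger, stood at 10.63 RPKM, whereas its copy Rps27rt had 281.9 RPKM. For Rpl34 the copy Rpl34-ps1 had 192.6 RPKM. Summed with the copy, the SD within groups of log2(RPKM + 1) was 0.18 for Rps27 and 0.16 for Rpl34, against 0.64 and 0.40 for the single rows. Levels and differences of Rps27 and Rpl34 are uncertain for this reason. No copy was summed with Rpl30, Rps4l or Rpl22, so the source of their low levels was not tested, and their values are also treated as uncertain.

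4 symbols matched but did not pass the filter. Rpl26 reached an RPKM of 0.5 in 0 libraries, while Gm15772, for which RefSeq lists Rpl26 as a synonym, had 304.0 RPKM. Rpl10l, a copy of Rpl10 known from testis, also reached it in 0 libraries. Rpl3l, the form of Rpl3 known from muscle, reached it in 1 library at 0.888 RPKM, and Rpl39l did so in 1 library at 0.691 RPKM. Their partners were far higher in the same scale: Rpl10 at 483.3, Rpl3 at 150.1 and Rpl39 at 194.5 RPKM. Rps27l, the partner of Rps27 that p53 is known to induce, had 192.8 RPKM. Of the X-linked and autosomal partners of the fourth small subunit protein, Rps4x had 257.5 RPKM and Rps4l 13.9. Rpl22l1, Rpl7l1 and Rpl36al, which the symbol rule leaves out, had 36.72, 18.38 and 277.2 RPKM, beside 54.32 for Rpl22, 224.9 for Rpl7 and 156.0 for Rpl36a.

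Summed over the 77 genes, the RPKM was 19550 ± 1410 (SD, n = 5) in chow control, 20340 ± 1540 (SD, n = 6) in chow GCGR, 19540 ± 2100 (SD, n = 6) in HFD control and 18110 ± 2320 (SD, n = 6) in HFD GCGR. The chow control libraries had sums of 20939, 21056, 19379, 18311 and 18058. Chow GCGR ranged from 18462 to 22972 with a median of 20450, HFD control from 17471 to 22524 with a median of 19190, and HFD GCGR from 15209 to 22132 with a median of 17730. All 4 groups overlapped. HFD GCGR held both the lowest sum of the 23, in library 20, and a high one, in library 19. As a share of all RPKM, the sum was 3.16% ± 0.184 (SD, n = 5) in chow control, 3.21% ± 0.179 (SD, n = 6) in chow GCGR, 3.01% ± 0.288 (SD, n = 6) in HFD control and 2.81% ± 0.220 (SD, n = 6) in HFD GCGR.

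**Figure D1:**
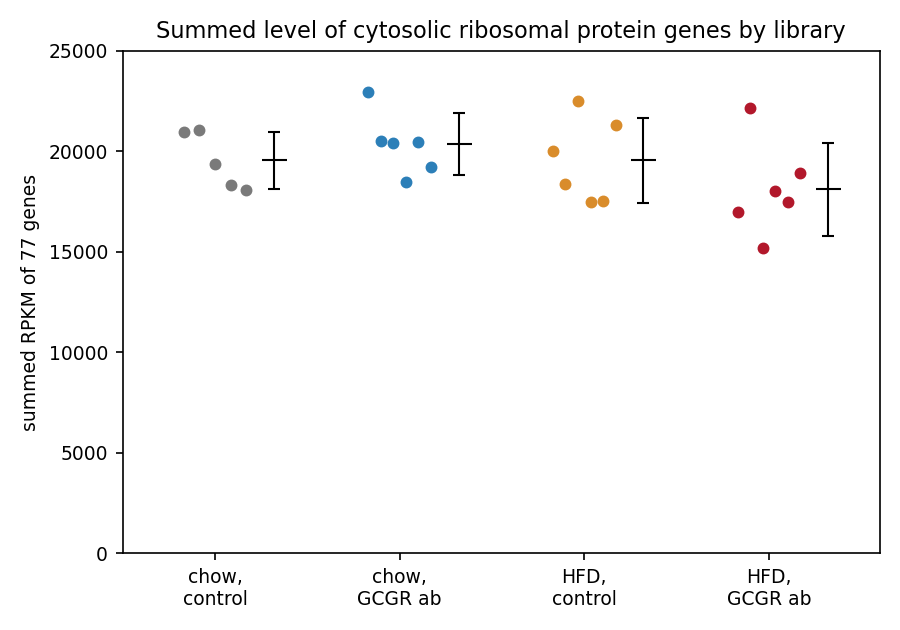
Summed RPKM of the 77 cytosolic ribosomal protein genes (vertical axis) in each library (points) of the 4 groups, with the group mean and SD as a bar beside the points. The groups overlap, and HFD GCGR spans 15209 to 22132.

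Gene by gene, the mean was lowest in HFD GCGR for 57 of the 77 genes and highest in chow GCGR for 52. HFD control had the highest mean for 22 genes and chow control for 2. Library 20, of HFD GCGR, was the lowest of all 23 libraries for 67 genes. Library 6, of chow GCGR, was the highest for 38, library 19 for 17 and library 14, of HFD control, for 15. A few libraries thus moved nearly the whole family at once, which limits what group means over 5 or 6 libraries can resolve.

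**Figure D2:**
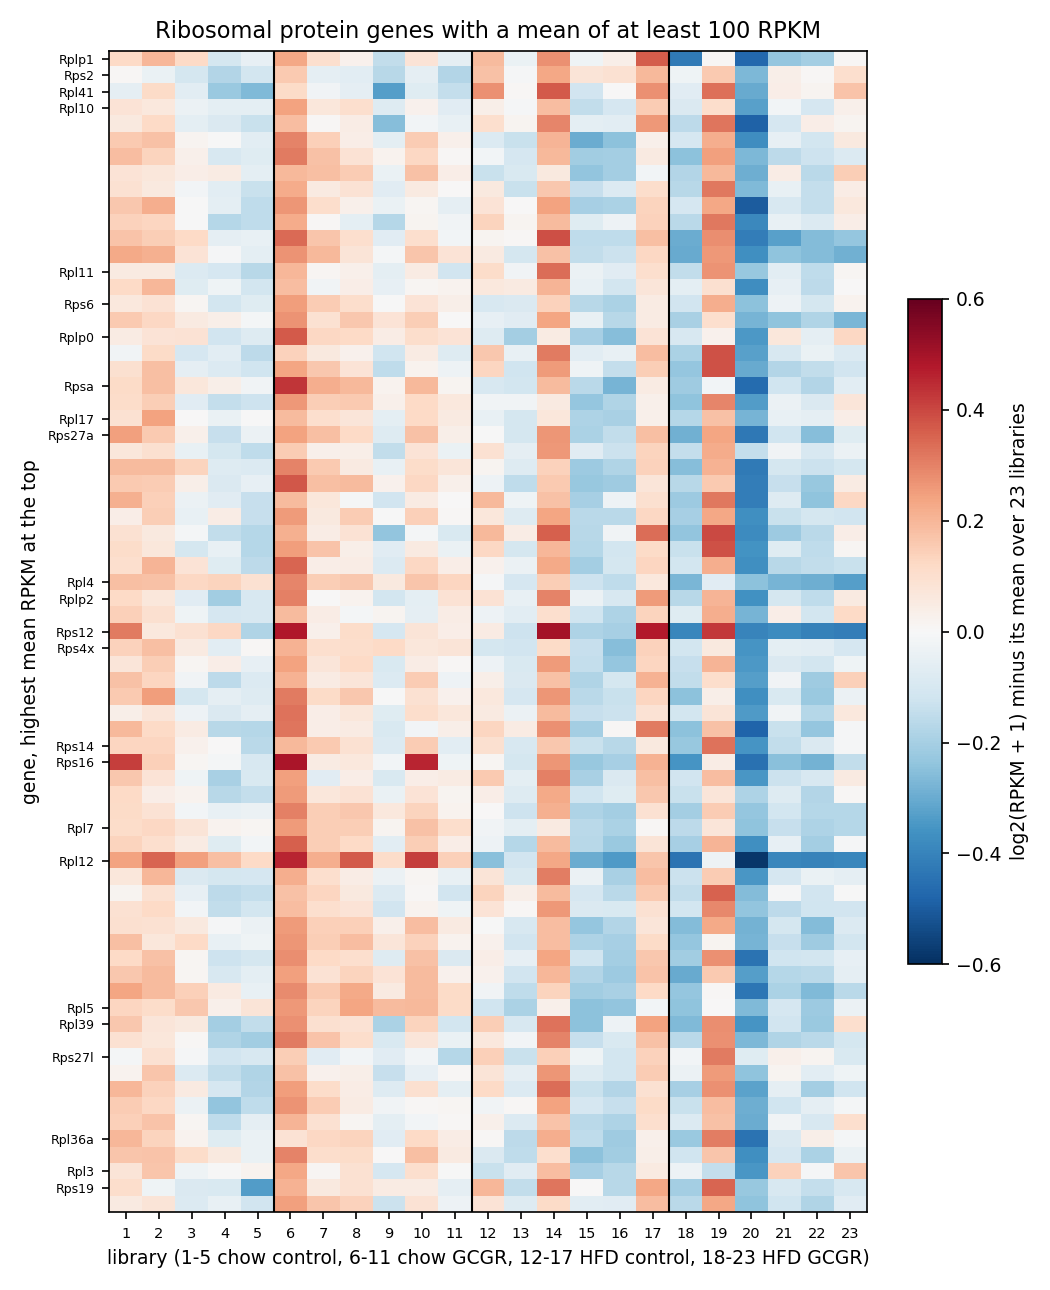
Log2(RPKM + 1) of each gene minus its mean over the 23 libraries (colour, red higher and blue lower) for the 71 ribosomal protein genes with a mean of at least 100 RPKM (rows, some labelled) in each library (columns, groups parted by lines). Libraries 6, 14 and 19 are red and library 20 blue over most rows. Rpl12 and Rpl4 are below their means in all 6 HFD GCGR libraries, only slightly so in library 19.

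Within groups the genes moved together from library to library. Over all 2926 pairs, the correlation of deviations from group means had a median of 0.854 and quartiles of 0.765 and 0.902, a description over 23 libraries in which the genes share library, depth and scaling. 4 genes had a median correlation under 0.5 with the others, namely Rps27 at 0.284, Rpl34 at 0.337, Rpl30 at 0.393 and Rpl22 at 0.445. These are 4 of the 6 genes under 100 RPKM.

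This shared movement extended to other genes with short transcripts. A set of 172 tested genes outside the family, with transcripts of at most 1000 bases and a mean of at least 50 RPKM, had a median deviation of the same sign as the ribosomal genes in 21 of 23 libraries. For 166 genes with transcripts of at least 3000 bases the sign was the same in 7 of 23. In library 19 the median deviation was 0.29 log2 units for the ribosomal genes, 0.30 for the short genes and -0.16 for the long genes. In library 20 the values were -0.25, -0.20 and 0.09, and in library 14 they were 0.22, 0.10 and 0.02. Mitochondrial ribosomal protein genes shared the sign in 21 of 23 libraries, and 19 elongation factors and other known TOP mRNAs in 17. The part that transcript length or RNA quality had in the spread of the ribosomal genes was not tested.

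**Figure D3:**
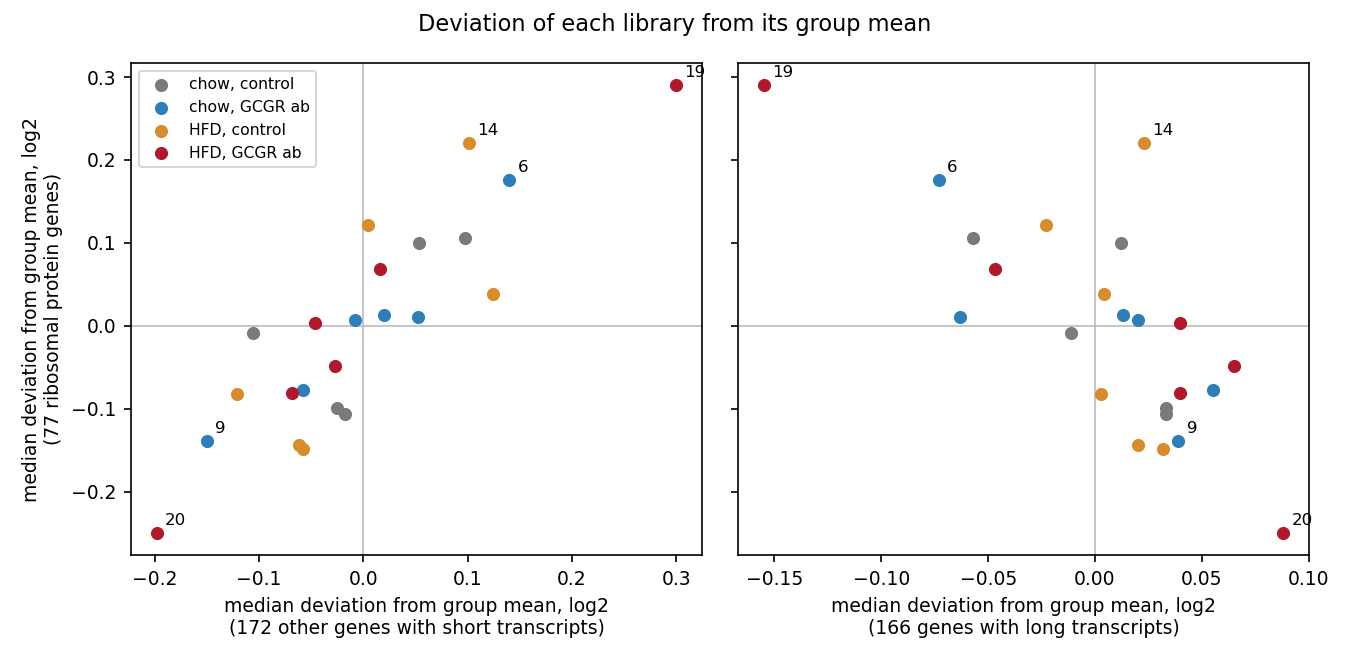
Median deviation of the 77 ribosomal protein genes from their group means (vertical axis, log2) against that of 172 other short genes (left) and 166 long genes (right), 1 point per library. Ribosomal and short genes deviate to the same side in 21 of 23 libraries, with library 19 at one end and library 20 at the other.

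The effect of GCGR blockade was asked separately on each diet. Differences below are in log2(RPKM + 1) ± SE from limma over all 11939 tested genes, with Benjamini-Hochberg adjustment, and a gene is called higher or lower at an adjusted p under 0.05. The antibody comparison on HFD shares the HFD control libraries with the diet comparison under control antibody and the HFD GCGR libraries with the diet comparison under GCGR antibody, and the antibody comparison on chow shares its 2 groups with the diet comparisons in the same way. No overlap of calls between comparisons is therefore given as a result. As the ribosomal genes moved together from library to library, the counts of genes above or below 0 given below are not counts of independent genes.

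On chow, 0 of the 77 ribosomal genes were called by limma in either direction, where 0.394% of all tested genes were higher and 0.553% lower. At an unadjusted p under 0.05 the count was also 0, against 7.02% of all tested genes higher and 3.77% lower. The count of calls at an adjusted p under 0.05 was 0 under every alternative limma setting tried and every omission of a library. The difference was above 0 for 72 of the 77 genes (93.5%), against 63% of all tested genes, and its median was 0.05 against 0.03 over all genes. Leaving out single libraries moved the members' median between 0.024 (without library 6) and 0.087 (without library 2). It was 0.014 with median-ratio scaling and 0.0048 with the level of other short genes as a covariate, an alternative chosen after the data were seen. Among the 71 genes with a mean of at least 100 RPKM, the differences ran from -0.02 to 0.15, and the 95% intervals of single genes stayed between -0.30 and 0.36. Rplp0, the base of the stalk, had 0.14 ± 0.08 (adjusted p = 0.605, limma), and Rps19, needed to mature the small subunit and mutated in Diamond-Blackfan anaemia, had 0.15 ± 0.10 (adjusted p = 0.646, limma). Changes smaller than these intervals were not resolvable with the libraries at hand.

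On HFD, the antibody comparison called 2 genes lower and 0 higher, the large subunit proteins Rplp1 and Rpl4. Over all tested genes 5.33% were higher and 2.12% lower, so that 2 of 77 (2.6%) is close to the background for lower genes. No gene was higher at an unadjusted p under 0.05, and 10 (13%) were lower, against 17% and 7% of all tested genes. The difference was below 0 for 68 of the 77 genes (88.3%), against 37.2% of all tested genes, with a median of -0.12 against 0.05. Leaving out single libraries moved the members' median between -0.17 (without library 19) and -0.066 (without library 20), and it was -0.071 without library 14. With the short gene covariate it was -0.018, against 0.034 over all genes. The 172 other short genes had a median of -0.10 with 4 called higher and 8 lower.

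Rplp1 pairs with Rplp2 on the stalk. Its chow control values were 669.1, 706.9, 669.9, 573.2 and 595.3 RPKM, and chow GCGR ranged from 556.5 to 723.3 with a median of 640.5. HFD control ranged from 600.7 to 793.7 with a median of 668.0, and HFD GCGR from 445.2 to 619.6 with a median of 530.5. The HFD GCGR libraries were low, but 2 of them, 19 and 23, reached into the range of HFD control. Rplp1 was lower under the antibody on HFD by a difference of -0.35 ± 0.09, or 78.3% of the control level (adjusted p = 0.0223, limma). Leaving out library 12, 14, 17, 18 or 20, each on its own, ended the call of Rplp1, with an adjusted p of up to 0.0579 in limma. Its partner Rplp2 ranged from 244.7 to 321.8 RPKM in HFD control and from 203.2 to 301.0 in HFD GCGR, and was not called.

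Rpl4, which lines the tunnel through which the new protein leaves the ribosome, was steadier. Its chow control values were 300.0, 298.7, 288.2, 290.6 and 281.6 RPKM, and chow GCGR ranged from 275.5 to 323.9 with a median of 294.3. HFD control ranged from 237.7 to 293.1 with a median of 255.0, and HFD GCGR from 210.1 to 252.2 with a median of 218.1. In HFD GCGR all libraries except 19 lay below every HFD control library. Rpl4 was lower under the antibody on HFD by a difference of -0.22 ± 0.06, or 85.9% of the control level (adjusted p = 0.0213, limma). Without library 14 it was no longer called (adjusted p = 0.0579, limma).

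The count of 2 depended on single libraries. Leaving out library 19 gave 10 lower genes, leaving out library 14 gave 0, and leaving out library 12, 17, 18 or 20 gave 1. Fitting the 2 HFD groups alone gave 0, and array weights, which give deviating libraries less say, gave 7. Shares of all tested genes called in these refits were not computed. Rpl12, a protein of the stalk base, had a difference of -0.27 ± 0.10 and was not called (adjusted p = 0.0981, limma), but was called without library 19. Rps12, singled out after its values were seen, lay between 189.6 and 194.8 RPKM in 5 HFD GCGR libraries and at 340.7 in library 19, and between 220.9 and 358.0 in HFD control. Its difference of -0.35 ± 0.15 was not called (adjusted p = 0.154, limma) and was called without library 19. Rps27 had the most negative difference, -0.81 ± 0.34 (adjusted p = 0.147, limma), which rests on 68.49 RPKM in library 17 against 6.936 to 11.15 in the other 5 HFD control libraries.

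Whether the antibody acted differently on the 2 diets was tested as the difference between its effects. limma called 0 of the 77 genes, with 0.126% of all tested genes called higher and 0.0754% lower. At an unadjusted p under 0.05, 0 were higher and 7 lower, against 5.57% and 4.29% of all tested genes, and every alternative setting and every omission of a library also gave 0 calls. The difference was below 0 for 74 of the 77 genes, against 46.1% of all tested genes, with a median of -0.17 against 0.02. Rpl4 had -0.24 ± 0.08 (adjusted p = 0.316), Rplp1 -0.34 ± 0.13 (adjusted p = 0.413) and Rpl12 -0.33 ± 0.15 (adjusted p = 0.453), all in limma. The calls on HFD and the lack of calls on chow therefore do not show that the diets differed in the antibody's effect on any single gene.

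**Figure D4:**
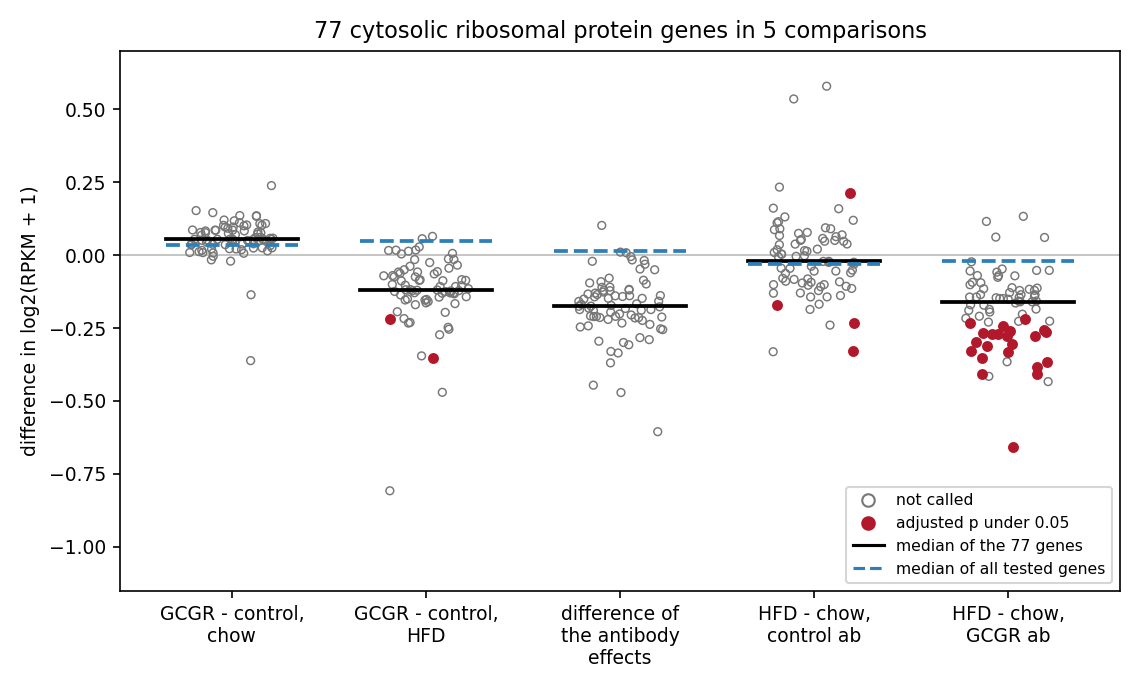
Difference in log2(RPKM + 1) of the 77 ribosomal protein genes (points, filled red where limma's adjusted p is under 0.05) in the 5 comparisons, with their median (black) and that of all tested genes (blue, dashed). The medians are 0.05, -0.12, -0.17, -0.02 and -0.16, and the red points number 0, 2, 0, 4 and 22.

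The effect of HFD was asked under each antibody. Under control antibody, 1 gene was higher, Rps2, and 3 were lower, Rpl5, Rpl12 and Rpl4. The background was 11.6% of all tested genes higher and 18.3% lower, and the calls were 1.3% and 3.9% of the 77. At an unadjusted p under 0.05, 2 genes were higher and 6 lower, against 16.4% and 24.7% of all tested genes. The median difference was -0.02 against -0.03 over all genes, with 42 genes (54.5%) below 0, against 55.3% of all tested genes.

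Rpl5 carries the 5S ribosomal RNA into the large subunit together with Rpl11, and both are known to bind Mdm2 when assembly fails. Its chow control values were 214.2, 211.4, 219.2, 199.7 and 206.7 RPKM, and HFD control ranged from 165.0 to 199.5 with a median of 175.4. No HFD control library reached the lowest chow control library, although library 14 came within 1 RPKM. Of the 77 genes, 1 (1.3%) was lower without overlap in this comparison, against 10.4% of all tested genes. Rpl5 was lower on HFD by a difference of -0.23 ± 0.06, or 85.1% of the chow level (adjusted p = 0.00683, limma). It stayed called whichever single library was left out, but not with median-ratio scaling (adjusted p = 0.0504, limma). Rpl11 ranged from 279.4 to 325.8 RPKM in chow control and from 299.3 to 395.5 in HFD control, and was not called.

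Rpl12 had 259.3, 279.8, 260.0, 248.8 and 238.3 RPKM in chow control, and HFD control ranged from 173.1 to 258.0 with a median of 192.9. Libraries 14 and 17 of HFD control lay within the chow range and the other 4 below it. Its difference was -0.33 ± 0.10, or 79.6% of the chow level (adjusted p = 0.0217, limma), and it was lost without library 2, 12, 15 or 16 (adjusted p of up to 0.0535, limma). Rpl4 had a difference of -0.17 ± 0.06, or 88.9% (adjusted p = 0.0361, limma), and was lost without library 1, 2, 3, 4, 12, 13, 15 or 16 (adjusted p of up to 0.0835, limma).

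Rps2 went the other way. Its chow control values were 528.1, 512.0, 489.1, 465.9 and 487.4 RPKM, and HFD control ranged from 524.0 to 616.9 with a median of 577.3. Only library 13 of HFD control fell under the highest chow control library. Rps2 was higher on HFD by 0.21 ± 0.07, or 116% of the chow level (adjusted p = 0.0315, limma), and was lost without library 3, 4, 5, 12, 14 or 17 (adjusted p of up to 0.0834, limma). Rpl41 stood at 0.23 ± 0.11 without a call (adjusted p = 0.104, limma). Rpl22, which binds RNA outside the ribosome as well, stood at 0.53 ± 0.31 (adjusted p = 0.197, limma). That value rests on libraries 12 and 14, with 154.5 and 158.6 RPKM against 36.16 to 47.65 in the other 4 HFD control libraries.

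Under GCGR antibody, HFD livers had lower levels of 22 ribosomal protein genes, 28.6% of the 77, and a higher level of 0. Over all tested genes, 16.6% were lower and 13.2% higher. The difference was below 0 for 73 of the 77 genes (94.8%), against 53.8% of all tested genes, and its median was -0.16 against -0.02. At an unadjusted p under 0.05, 33 were lower and 0 higher, against 23% and 18.3% of all tested genes. The 22 split evenly, with 11 of 45 large subunit and 11 of 32 small subunit genes. Called differences ran from -0.66 to -0.22. The libraries of the groups did not overlap for 7 genes (9.09%), against 5.1% of all tested genes.

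**Figure D5:**
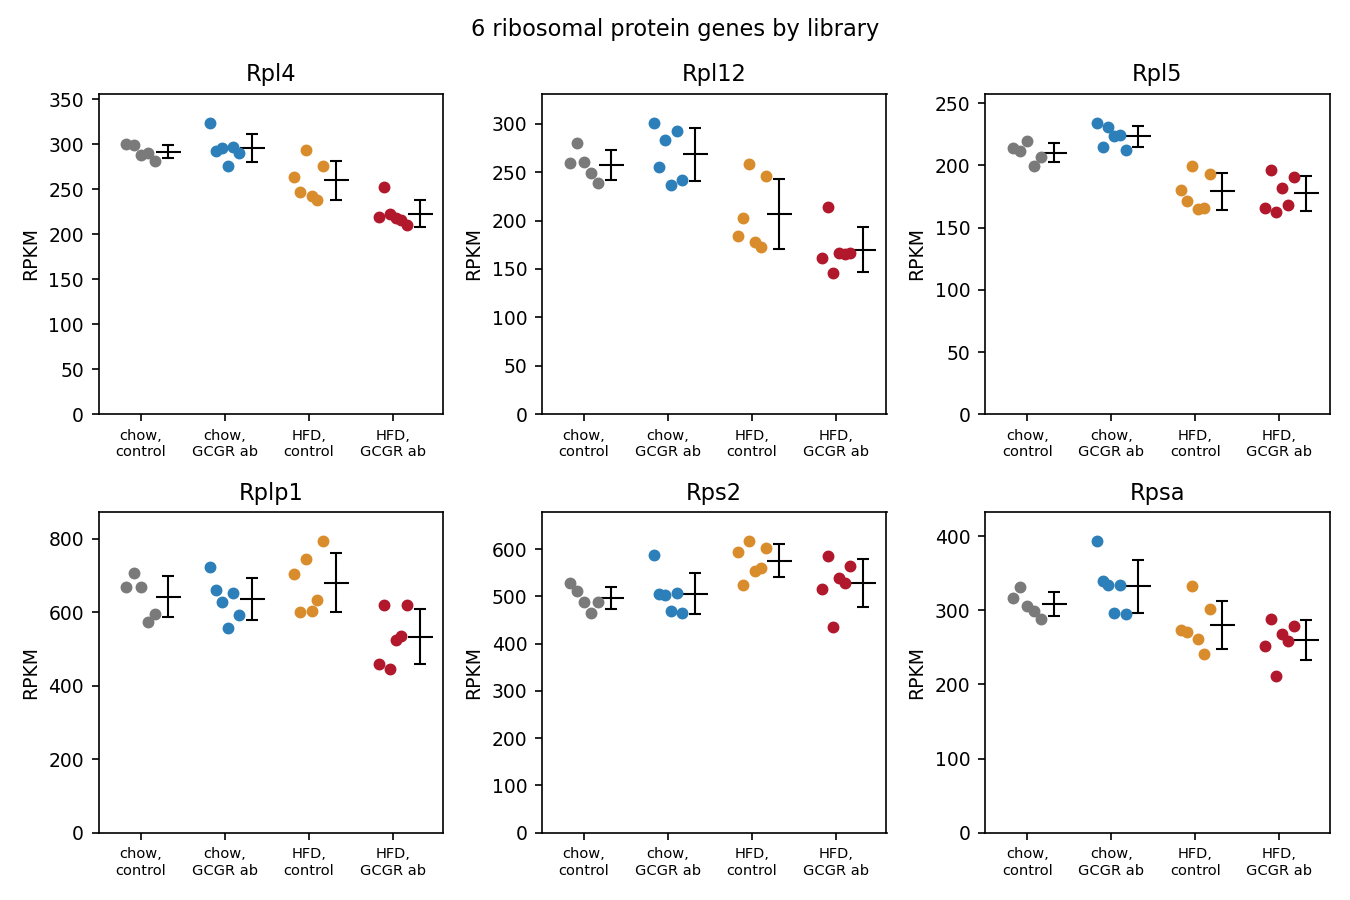
RPKM of 6 ribosomal protein genes (vertical axes, from 0) in each library (points) of the 4 groups, with mean and SD as a bar. Rpl4, Rpl12, Rpl5 and Rpsa show no overlap between chow GCGR and HFD GCGR, while Rplp1 and Rps2 do overlap.

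Rpl4 showed the smallest adjusted p. It ranged from 275.5 to 323.9 RPKM in chow GCGR and from 210.1 to 252.2 in HFD GCGR, with medians of 294.3 and 218.1, and the groups did not overlap. The difference was -0.41 ± 0.06, or 75.4% of the chow level (adjusted p = 2.12e-05, limma). Rpl12 ranged from 236.9 to 301.0 RPKM in chow GCGR with a median of 269.0, and from 145.9 to 214.3 in HFD GCGR with a median of 166.2. It had the largest decrease of the family, -0.66 ± 0.10, or 63.3% of the chow level (adjusted p = 4.74e-05, limma), again without overlap.

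Rpl5 ranged from 212.2 to 234.3 RPKM in chow GCGR with a median of 223.8, and from 162.5 to 196.1 in HFD GCGR with a median of 175.0. All HFD GCGR libraries were below all chow GCGR libraries, and the difference was -0.33 ± 0.06, or 79.4% (adjusted p = 0.000221, limma). Rpl11, the other protein of the 5S particle, ranged from 289.6 to 359.7 and from 268.0 to 378.5 RPKM and was not called. The large subunit protein Rpl7 ranged from 226.7 to 267.4 RPKM in chow GCGR and from 189.2 to 235.4 in HFD GCGR, where library 19 alone reached the chow range. Its difference was -0.28 ± 0.06, or 82.5% (adjusted p = 0.000934, limma).

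In the small subunit, Rpsa, known also as the laminin receptor, ranged from 295.6 to 393.3 RPKM in chow GCGR with a median of 334.6, and from 211.9 to 288.6 in HFD GCGR with a median of 263.6. The groups did not overlap, and its difference was -0.35 ± 0.08, or 78.2% (adjusted p = 0.00302, limma). Rps4x, encoded on the X chromosome, ranged from 268.4 to 296.4 and from 200.6 to 266.8 RPKM without overlap, with -0.22 ± 0.07, or 86% (adjusted p = 0.0235, limma). Rps3, which guards the mRNA entry channel, was also called and without overlap, with 207.1 to 245.9 RPKM in chow GCGR and 168.3 to 206.3 in HFD GCGR.

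Rps27a, made as a fusion with ubiquitin, was lower by a difference of -0.27 ± 0.10 (adjusted p = 0.0465, limma), near the threshold, and was lost without any one of libraries 6, 7, 8, 10, 11, 18, 20, 21, 22 or 23 (adjusted p of up to 0.104, limma). Of the stalk, Rplp1 was lower, with -0.26 ± 0.09 (adjusted p = 0.0398, limma). It was lost without library 6, 7, 8, 10, 18, 20, 21 or 22 (adjusted p of up to 0.0897, limma). Rplp0 ranged from 305.5 to 382.6 RPKM in chow GCGR and from 232.9 to 323.1 in HFD GCGR, Rplp2 from 242.2 to 322.7 and from 203.2 to 301.0, and neither was called. Rps6, the main ribosomal substrate of S6 kinase, ranged from 299.9 to 358.3 and from 253.1 to 350.0 RPKM and was not called. Rps14 and Rpl17 were not called either, with 221.0 to 268.2 and 277.4 to 329.1 RPKM in chow GCGR and 183.3 to 294.1 and 237.9 to 325.8 in HFD GCGR.

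Of the 22 genes, 13 kept their call under every alternative setting and without any single library of the 2 groups, among them Rpl4, Rpl12, Rpl5, Rpl7 and Rpsa. Without library 19 the count was 37 in place of 22. Leaving out any other library of the 2 groups gave 15 or more. The share of all tested genes called lower in these refits was not computed, so these counts have no background beside them. The remaining 55 genes had differences from -0.43 to 0.13 with SE of up to 0.37, so that decreases of the size called in others are within the error of many of them.

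Genes that encode long ribosomal proteins made up most of the calls. Among the 24 genes with the longest proteins (188 to 419 residues), 13 were lower on HFD under GCGR antibody, with a median difference of -0.23 and a median SE of 0.08. Among the 24 with the shortest (51 to 132 residues), 2 were lower, with a median of -0.14 and a median SE of 0.10. In the middle 24 genes, 5 were lower, with a median of -0.15. The shorter genes had larger SE, and the difference between these groups of genes was not tested.

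Other short genes did not move with diet as the ribosomal genes did. The 172 short genes outside the family had a median diet difference of 0.25 under control antibody, with 89 higher and 11 lower, and of 0.18 under GCGR antibody, with 52 higher and 12 lower. The ribosomal genes had medians of -0.02 and -0.16. In an added model, chosen after seeing the data, the level of those short genes in each library was a covariate. The count of lower ribosomal genes was then 50 under control antibody and 69 under GCGR antibody, with medians of -0.38 and -0.41, where 2.61% and 8.46% of all tested genes were lower. That level itself differs between the diets, so in the added model the level of short genes and the diet cannot be told apart. In the same model the difference of the antibody effects had a median of -0.03 in place of -0.17.

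Some markers of other cells were also called with diet or antibody, while other lists stood near the shares of all tested genes. Over all tested genes, 5.33% were higher and 2.12% lower under the antibody on HFD. On HFD against chow, 11.6% were higher and 18.3% lower under control antibody, and 13.2% and 16.6% under GCGR antibody. Of 12 T and NK cell symbols, 5 were tested and 3 (60%) were higher under the antibody on HFD. The 5 summed to 2.865 to 3.812 RPKM in HFD control and 4.124 to 16.8 in HFD GCGR. The 3 were Ccl5, with means of 1.609 and 5.685 RPKM in these groups, Cd3g (0.4219 and 0.8371) and Il2rb (0.4028 and 0.8635). Cd3g and Il2rb lay near the filter of 0.5 RPKM. They may have passed it through the group where they were higher, so no weight is put on their calls. Of 11 stellate cell and matrix genes, 6 (54.5%) were higher on HFD under GCGR antibody. Their list summed to 92.63 to 100.7 RPKM in chow GCGR and 86.29 to 195.7 in HFD GCGR. Of 15 tested macrophage and monocyte genes, 3 (20%) were higher and 4 (26.7%) lower there, with sums of 177.3 to 252.9 and 124.6 to 197.9. The higher ones were Trem2, with means of 0.1641 RPKM in chow GCGR and 1.295 in HFD GCGR, Gpnmb (0.04208 and 0.961) and Ccr2 (0.2855 and 0.7342). In chow GCGR these means lay under the filter of 0.5 RPKM. The 3 genes may have passed it only through HFD livers, so no weight is put on their calls. Among the 10 endothelial genes 1 (10%) was higher and 2 (20%) lower, near the shares of all tested genes. The Ms4a1 gene of B cells and the neutrophil genes Ly6g, Mpo, Camp and Ngp stayed under 0.5 RPKM in all libraries. Mitochondrially encoded genes were higher on HFD for 10 of 13 (76.9%) under control antibody and for 3 of 13 (23.1%) under GCGR antibody. Hepatocyte markers summed to 65490 to 77370 RPKM in HFD control and 60690 to 64570 in HFD GCGR, with no overlap. Much of the sum was Alb (albumin), with a mean of 36440 RPKM in HFD control, where the mean sum was 71440. Of the 11 tested, 1 (9.09%) was higher and 1 (9.09%) lower under the antibody on HFD. The lower one was Alb at -0.37 ± 0.09 (adjusted p = 0.0137, limma). The higher one was Cyp2e1 at 0.56 ± 0.11 (adjusted p = 0.00298, limma). Under control antibody 1 hepatocyte marker (9.09%) was higher and 5 (45.5%) were lower on HFD, and under GCGR antibody 1 (9.09%) and 3 (27.3%). Red blood cell genes summed to 768.3 to 1705 RPKM in chow control and 1868 to 3746 in HFD control, again with no overlap. Of the 7 tested, 3 (42.9%) were higher on HFD there. One of them, Slc4a1, stood near the filter of 0.5 RPKM, with means of 0.1985 and 0.6834 RPKM. Immediate early and heat shock genes respond quickly to stimuli and stress. Of 12 tested, 3 (25%) were lower and 1 (8.33%) higher on HFD under GCGR antibody, with a list median of 0.08. The higher one was the transcription factor gene Atf3 (0.63 ± 0.23, adjusted p = 0.0439, limma). The lower ones were the transcription factor genes Junb (-1.44 ± 0.32, adjusted p = 0.00183) and Egr1 (-1.79 ± 0.62, adjusted p = 0.0338) and the early response gene Ier2 (-1.20 ± 0.32, adjusted p = 0.00652), all in limma. The part that these shifts had in the ribosomal gene values was not tested.

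The wider translation machinery was compared by lists of known members. Each count is read against all tested genes, of which 18.3% were lower and 11.6% higher on HFD under control antibody, and 16.6% and 13.2% under GCGR antibody. Genes of mitochondrial ribosomal proteins, which build a separate ribosome, were mostly higher where called. Of 77 tested, 29 were higher and 3 lower on HFD under control antibody, with a median of 0.16, and 13 were higher and 0 lower under GCGR antibody, with a median of 0.13. The higher genes were 37.7% and 16.9% of the list, the latter near the share of all genes. Mrpl45, which tethers that ribosome to the inner membrane, rose by 0.40 ± 0.06 (adjusted p = 0.00012) and 0.43 ± 0.06 (adjusted p = 2.33e-05) in limma.

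Of 19 elongation factors and other known TOP mRNAs, 8 were lower and 1 higher on HFD under control antibody, and 9 lower and 0 higher under GCGR antibody. The lower genes were 42.1% and 47.4% of the list, against 18.3% and 16.6% of all genes. Eef1a1, which brings aminoacyl-tRNA to the ribosome, had 2149 ± 56.2 RPKM (SD, n = 5) in chow control and 1757 ± 85.4 (SD, n = 6) in HFD control, a difference of -0.29 ± 0.05 (adjusted p = 0.000577, limma). Under GCGR antibody its difference was -0.32 ± 0.05 (adjusted p = 0.000127, limma). Eef2, which drives translocation, had -0.34 ± 0.07 (adjusted p = 0.00133) and -0.29 ± 0.07 (adjusted p = 0.00264) in limma. Npm1, a nucleolar chaperone, was lower under GCGR antibody by a difference of -0.39 ± 0.07 (adjusted p = 0.000486, limma). Eif3e was higher under the antibody on HFD, by 0.24 ± 0.05 (adjusted p = 0.00299, limma). It was the 1 gene of that list called in either antibody comparison.

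Of 31 initiation factors, 3 were lower and 1 higher on HFD under control antibody, and 7 lower and 2 higher under GCGR antibody. The lower genes were 9.68% and 22.6% of the list, against 18.3% and 16.6% of all genes, so the first is below the background. Of 61 tested genes of ribosome assembly and RNA polymerase I, 13 and 17 were lower on HFD under control and GCGR antibody, and 2 were higher in each. The lower genes were 21.3% of the list, near the 18.3% of all genes, and 27.9%, against 16.6%. Ddx21, a helicase of rRNA processing, had -0.46 ± 0.06 (adjusted p = 2.71e-05) and -0.34 ± 0.06 (adjusted p = 0.000276) in limma. The same list had 9 genes (14.8%) higher and 0 lower under the antibody on HFD, against 5.33% and 2.12% of all genes, the side on which no ribosomal protein gene was called. There Mphosph10 rose by 0.39 ± 0.06 (adjusted p = 0.00033, limma) and Ddx21 by 0.25 ± 0.06 (adjusted p = 0.0147, limma).

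Among 26 regulators of TOP mRNA translation, 8 were lower and 2 higher on HFD under control antibody, and 5 lower and 1 higher under GCGR antibody. The lower genes were 30.8% of the list, against 18.3% of all genes, and 19.2%, near the 16.6% of all genes. Larp1, which binds the TOP tract, had -0.27 ± 0.07 (adjusted p = 0.00455) and -0.33 ± 0.06 (adjusted p = 0.000442) in limma. Cnbp, a zinc finger protein that also binds these mRNAs, had -0.34 ± 0.06 (adjusted p = 0.00021) and -0.29 ± 0.06 (adjusted p = 0.000545). Mknk2, a kinase of the cap-binding factor eIF4E, rose by 0.81 ± 0.19 (adjusted p = 0.00279) and 0.86 ± 0.18 (adjusted p = 0.0011). Eif4ebp3, a repressor of eIF4E, rose under the antibody on HFD by 1.86 ± 0.30 (adjusted p = 0.000362, limma), from 7.068 ± 0.541 RPKM (SD, n = 6) to 33.47 ± 20.2 (SD, n = 6). Its chow values were 14.16 ± 2.26 (SD, n = 5) under control antibody and 35.92 ± 11.1 (SD, n = 6) under GCGR antibody. It was not called on chow, where 0 of the 26 genes were called under the antibody.

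Of 6 tested ribosomal protein genes outside the symbol rule, Gnb2l1, which encodes the small subunit protein RACK1, was lower on HFD under both antibodies. It had 208.8 ± 10.4 RPKM (SD, n = 5) in chow control, 226.9 ± 12.1 in chow GCGR, 181.1 ± 17.2 in HFD control and 170.5 ± 8.47 in HFD GCGR (SD, n = 6 each). The differences were -0.21 ± 0.06 (adjusted p = 0.015) and -0.41 ± 0.06 (adjusted p = 2.83e-05) in limma, and the chow GCGR and HFD GCGR libraries did not overlap. Rpl36al was higher on HFD under control antibody by 0.39 ± 0.12 (adjusted p = 0.0179, limma). Fau, which encodes a ubiquitin-like protein fused to a ribosomal protein, had 272.1 RPKM and was not called.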

How the data were processed

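The authors deposited 1 table of RPKM per gene (a read count divided by gene length and library size), 1 column for each of 23 libraries. Per the labels' protocols, strand-specific KAPA mRNA-Seq libraries were sequenced as single reads. The software named is bcl2fastq 2.17 and FastQC, with the build GRCm38, per the submitters' processing notes. Not given in the sources used here are the aligner, counter, strand setting and annotation. Absolute depth is unknown, so no counting intervals were computed.

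Genes with at least 0.5 RPKM in at least 5 libraries (11939 of 24475) entered limma 3.58.1 (R 4.3.3) on the log2(RPKM + 1) scale, as 4 group means over all 23 libraries with a mean-variance trend, two-sided, with Benjamini-Hochberg adjustment over all tested genes. The pseudocount of 1 understates differences of low genes. The code was tested on simulated data.

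The genes and lists were chosen with earlier results of these data known. Named genes are the 5 called genes with the smallest adjusted p per comparison and direction, the extremes of level and spread, and genes listed for their role. Rps12, Rps16, Rpl15, Rps3, Rpl7a and Rpl28 were named after their values were seen. A few genes are not reported here by name. Alternatives were other filters, pseudocounts, scalings, weights and omitted libraries.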

Additional observations from a re-analysis of the deposited data

Results flagged for a closer look

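For 30 named ribosomal protein genes and their sum, values were searched for a library that stood far from the rest of its group. Of 124 groups of values checked, 13 had one, where chance flags about 1 in 20 groups, and the genes are not independent of each other. In HFD GCGR it was library 19 each time, the highest of 6, with 252.2 RPKM for Rpl4, 214.3 for Rpl12, 235.4 for Rpl7, 90.71 for Rpl15, 184.4 for Rps19, 239.1 for Rps27l and 340.7 for Rps12. In chow GCGR it was library 6, with 586.6 RPKM for Rps2, 382.6 for Rplp0, 296.4 for Rps4x and 354.2 for Rps12, and for Rpl15 it was library 8 with 128.6. In HFD control it was library 17, with 68.49 RPKM for Rps27. All 13 were the highest of their group.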

How the results depend on the processing

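The 13 decreases on HFD under GCGR antibody that were called in every setting are the firmest results for single genes. The other calls did not hold under all settings, and in all cases the cause was not tested unless a value shows it. With each library left out in turn, the count of lower genes ran from 0 (without library 14) to 10 (without library 19) for the antibody on HFD, and from 15 to 37 (without library 19) for HFD under GCGR antibody. For HFD under control antibody it ran from 1 (without library 2, 12, 15 or 16) to 4, and the count of higher genes from 0 (without library 3, 4, 5, 12, 14 or 17) to 1. For the antibody on HFD, the 2 lower genes became 0 when the 2 groups were fitted alone, 7 with array weights and 6 without libraries 19 and 20. For HFD under control antibody, the 1 higher gene (Rps2) became 0 with upper-quartile scaling and 2 with array weights. The 3 lower genes became 0 with median-ratio scaling and 6 both with array weights and with scaling that leaves out the 10 most abundant genes. The 22 lower genes under GCGR antibody became 13 with median-ratio scaling, which moved the median of all genes from -0.02 to -0.0004. For the settings and omissions so far, shares of all tested genes called were not computed. Whether these counts exceed the share of all genes is therefore not known. With the level of short genes as a covariate, chosen after seeing the data, 50 and 69 genes were lower and 0 higher under control and GCGR antibody, the medians were -0.38 and -0.41, and the median difference of the antibody effects was -0.029. In that model the diet differences of Rps2 (-0.10), Rpl41 (-0.26) and Rpl22 (-0.24) under control antibody were below 0. The median diet difference under control antibody had no fixed sign, from -0.07 to 0.02 with libraries left out. No paired analysis was possible because the libraries are numbered 1 to 23 and no number is shared between groups.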
